A study of Zea mays with 8 samples.

Results

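Immature ears of a wild-type maize hybrid were compared with those of its Mo17 parent. The comparison used 4 of the 8 RNA sequencing libraries of a study on CHH methylation, a form of cytosine methylation found in plants, and its bearing on gene expression. The 4 libraries were chosen by their titles: 2 of the wild-type hybrid (WTF1, genotype Mo17/B73 and +/+, without the mop1 mutation) and 2 of the inbred line Mo17, labelled wild type. The other 4 libraries, 2 of the mutant hybrid mop1F1 (genotype B73/Mo17 and mop1/mop1) and 2 of the inbred parent B73 (labelled wild type), served only to show where the hybrid levels lay. The labels give the tissue as immature ear in all groups and state no age, no growth condition and no number of ears or plants per library. Nothing in them tells if replicate libraries stem from different plants, and the p-values therefore reflect library-to-library spread, part of which may be technical.

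A maize F1 hybrid carries 1 chromosome set from each inbred parent, so each gene is present as a B73 copy and a Mo17 copy unless a parent lacks it. Inbred maize lines are known to differ both in how strongly they express shared genes and in which genes their genomes hold. A gene that a single parent expresses can be expressed in the hybrid from that parent's copy alone. The immature ear is a flowering shoot with many meristems, in which branching, spikelet and flower development run side by side. In bulk tissue, fewer cells that express a gene and less RNA of it per cell cannot be told apart.

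The 2 WTF1 libraries held 11723096 and 26199577 reads counted at gene IDs, and the 2 Mo17 libraries 16582416 and 17293259. By the names the authors gave their count tables, WTF1, mop1F1 and B73 were mapped to B73 and Mo17 was mapped to Mo17, so a difference in mapping goes with the comparison and cannot be told apart from a difference in RNA. The IDs end in RefGen_V4 and carry no gene names in the files. The gene table at hand was that of another assembly, Zm-B73-REFERENCE-NAM-5.0, and 0 of 39498 IDs matched it. No function or chromosome position is therefore given. The planned gene lists and the markers of ear, leaf, kernel and pollen could not be looked up. For that reason the labelled tissue was not checked against markers, and 2 IDs in each direction are named. The WTF1 libraries differed more from each other than the Mo17 libraries did: the biological coefficient of variation, the spread between libraries beyond counting error, was 44.3% in WTF1 and 14.4% in Mo17 (n = 2 each). More than 2-fold apart between the libraries of a group were 5078 of 21453 IDs in WTF1 (23.7%) and 711 of 21066 in Mo17 (3.38%), among IDs with a group mean of at least 1 CPM (1 count per 1000000 counted reads). Ambiguous reads, which overlap several genes, made up 9.70% of the records of WTF1 replicate 1 and 1.29% of WTF1 replicate 2, against 1.59% and 2.35% in Mo17. The part of these reads in the results was not tested.

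Of 22956 IDs tested, 520 were called different (2.27%, edgeR quasi-likelihood test, Benjamini-Hochberg adjusted p below 0.05), 353 higher (1.54%) and 167 lower (0.727%) in WTF1. The calls fell into 3 classes. IDs with counts in both groups made up 22558 of those tested, and 358 of them were called (1.59%), 194 higher (0.86%) and 164 lower (0.727%) in WTF1. A further 383 tested IDs were without counts in Mo17, and 159 of them were called higher. The last 15 had 0 counts in both WTF1 libraries, and 3 of them were called lower.

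**Figure D1:**
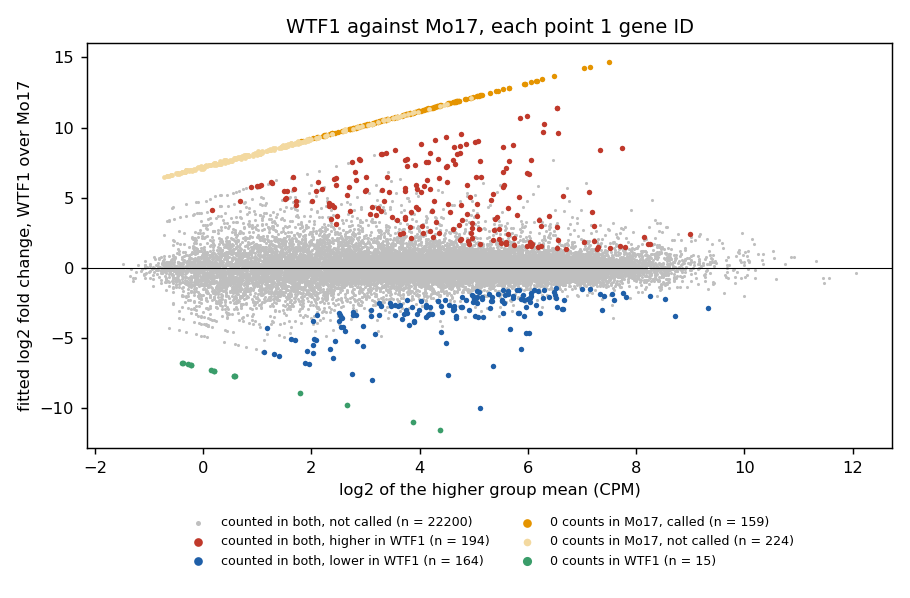
Fitted log2 fold change of WTF1 over Mo17 (vertical axis) against the log2 of the higher of the 2 group means in CPM (horizontal axis), with 1 point per tested ID. Among IDs counted in both groups, the 194 called higher lie above 0 and the 164 called lower lie below it. Some of the 22200 not called lie at the same fold changes, so fold size does not separate them from the called IDs. The 383 IDs at 0 in Mo17 form a band at the top whose height depends on the fit's prior count.

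Among the IDs counted in both groups, the calls higher in WTF1 were larger than those lower in WTF1. The fitted log2 fold change of the 194 higher IDs had a median of 4.83 (quartiles 2.94 and 6.64) and that of the 164 lower IDs had a median of -2.80 (quartiles -3.59 and -2.20), beside a median of 0.01 over all 22558. At 63 of the higher IDs and 11 of the lower IDs the fitted change exceeded 64-fold, and between 4-fold and 16-fold lay 48 of the higher IDs and 103 of the lower IDs. The largest changes were next to silence in 1 group. Of the 194 higher IDs, 116 had a mean below 1 CPM in Mo17, as did 1502 of the 22558, and 48 of the 194 had 0 counts in 1 of the 2 Mo17 libraries. Of the 164 lower IDs, 43 had a mean below 1 CPM in WTF1, as did 1451 of the 22558, and 13 of the 164 had 0 counts in 1 of the 2 WTF1 libraries.

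Calls were made at every level except the lowest. Of 5836 IDs whose higher group mean lay between 1 and 10 CPM, 49 were called higher and 40 lower, and of 13159 between 10 and 100 CPM it was 128 and 110. Above 100 CPM, 17 of 2966 IDs were called higher and 14 lower. None of the 597 IDs below 1 CPM in both groups was called by edgeR or by DESeq2, and 74 had an unadjusted p below 0.05 (edgeR). The lack of a call there does not show equal levels. The part of depth, of spread and of the number of libraries in it was not tested. The libraries of the 2 groups did not overlap at 12656 of the 22558 IDs (56.1%), 5450 higher and 7206 lower in WTF1. Of the 22558, 1.59% were called. With 2 libraries per group, a lack of overlap can often arise without a true difference, so this count is not one of missed differences.

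The called differences were also read in each WTF1 library alone. The calls came from these same libraries, and the test favours IDs at which both lie far from Mo17. Agreement of the 2 libraries at called IDs is therefore no separate support. With 0.1 CPM added, each called ID counted in both groups was more than 2-fold from the Mo17 mean in either WTF1 library. The median log2 difference of the 194 higher IDs from the Mo17 mean was 4.38 in WTF1 replicate 1 and 4.05 in WTF1 replicate 2, and that of the 164 lower IDs was -2.83 and -2.94. WTF1 replicate 1 lay further from Mo17 at 148 of the 194 higher IDs and at 89 of the 164 lower IDs, whereas replicate 1 was above replicate 2 at 11160 of all 22317 IDs with at least 1 CPM in WTF1 or Mo17.

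**Figure D2:**
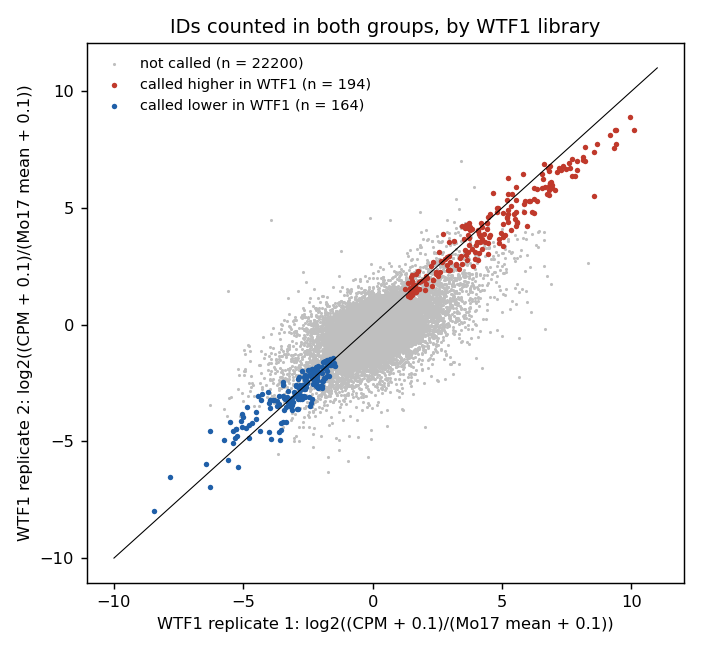
Log2 ratio to the Mo17 mean, with 0.1 CPM added, in WTF1 replicate 1 (horizontal axis) and in WTF1 replicate 2 (vertical axis) for the 22558 IDs counted in both groups. The 194 IDs called higher (red) and the 164 called lower (blue) lie near the line of equal values, while many of those not called (grey) lie away from it. The calls came from the same libraries, and the test favours IDs at which the 2 agree.

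The number called depended on which libraries and IDs set the spread and the adjustment. Without Mo17 replicate 1, 62 IDs counted in both groups were higher and 24 lower (edgeR), and without Mo17 replicate 2 it was 63 and 18. Without WTF1 replicate 1 or 2 the spread comes from the Mo17 pair alone, and 3830 and 4983 IDs were higher and 3464 and 4550 lower. With the IDs at 0 in Mo17 left out before the fit, 89 were higher and 58 lower (edgeR), and DESeq2, another count test that called 9.79% of the IDs it tested in all classes together, called 1355 higher and 783 lower. In all of these the higher IDs outnumbered the lower ones. In the main fit, 55 of the 194 higher IDs had 1 to 3 counts over the 2 Mo17 libraries together, next to the class at 0.

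The largest change towards WTF1 among IDs counted in all 4 libraries was that of Zm00001d021844.RefGen_V4. It stood at 126.4 and 61.0 CPM in the WTF1 libraries, 84.6 and 112.7 CPM in mop1F1, 177.2 and 107.4 CPM in B73, and 0.121 and 0.116 CPM in Mo17, where it had 2 counts in each library. It was abundant in both hybrids and in B73 and close to silent in Mo17, with no overlap between WTF1 and Mo17. The means were 93.7 ± 46.2 CPM in WTF1 and 0.118 ± 0.00351 CPM in Mo17 (SD, n = 2 each), and log2 fold change was 9.61 ± 0.59 with its SE (edgeR, adjusted p = 0.0151). Over the summed counts of 3064 in WTF1 and 4 in Mo17 the level was 688 times higher in WTF1, with an exact 95% interval of 268 to 2526 that covers counting error only.

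Zm00001d040368.RefGen_V4 showed the same pattern at a lower level. Its values were 64.95 and 28.2 CPM in WTF1, 32.2 and 48.4 CPM in mop1F1, 80.4 and 58.3 CPM in B73, and 0.181 and 0.0578 CPM in Mo17, from 3 and 1 counts there. The groups did not overlap, at means of 46.6 ± 25.96 CPM in WTF1 and 0.119 ± 0.0870 CPM in Mo17 (SD, n = 2 each), and log2 fold change was 8.60 ± 0.73 with its SE (edgeR, adjusted p = 0.0199). The ratio of summed counts, 1493 in WTF1 and 4 in Mo17, was 335 with an exact 95% interval of 131 to 1232.

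In the other direction, Zm00001d021001.RefGen_V4 was near silent in WTF1 and well expressed in Mo17. It had 0.429 and 0.230 CPM in WTF1 (5 and 6 counts), 0.214 and 0.772 CPM in mop1F1, 0.432 and 0.117 CPM in B73, and 40.04 and 42.3 CPM in Mo17. Mo17 was thus the one group of the 4 in which this ID was expressed above 1 CPM. The means were 0.330 ± 0.141 CPM in WTF1 and 41.2 ± 1.62 CPM in Mo17 (SD, n = 2 each), and log2 fold change was -7.00 ± 0.40 with its SE (edgeR, adjusted p = 0.0182). The summed counts of 11 in WTF1 and 1396 in Mo17 correspond to a level 141 times higher in Mo17, with an exact 95% interval of 78.7 to 284.

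Zm00001d024852.RefGen_V4 was lower throughout. It had 0.0858 and 0.0767 CPM in WTF1, from 1 and 2 counts, 0.214 and 0 CPM in mop1F1, 2.21 and 0.176 CPM in B73, and 5.31 and 4.80 CPM in Mo17. The B73 libraries disagreed with each other, while the WTF1 and Mo17 libraries did not overlap. The means were 0.0813 ± 0.00641 CPM in WTF1 and 5.05 ± 0.359 CPM in Mo17 (SD, n = 2 each), and log2 fold change was -5.80 ± 0.59 with its SE (edgeR, adjusted p = 0.0202). The ratio of summed counts, Mo17 over WTF1, was 63.5 with an exact 95% interval of 21.4 to 311. This call was lost without Mo17 replicate 1 or 2 (edgeR, adjusted p = 0.0649 and 0.052), with log2 fold changes of -5.73 and -5.88.

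**Figure D3:**
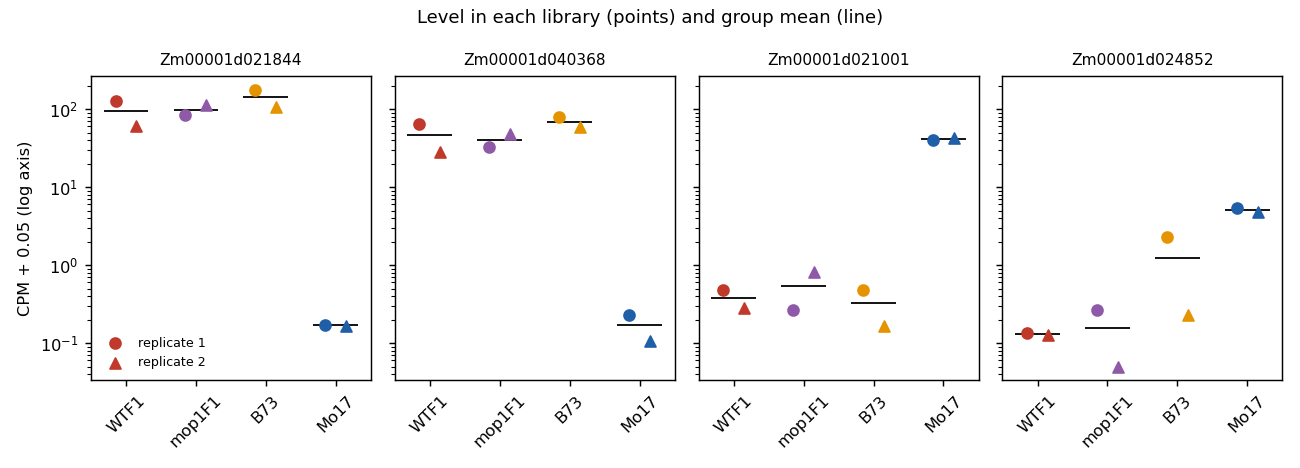
CPM plus 0.05 on a log axis in each of the 8 libraries for the 4 named IDs, with circles for replicate 1, triangles for replicate 2 and a line at the group mean. In the 2 left panels WTF1, mop1F1 and B73 lie together far above Mo17, and in the 2 right panels Mo17 lies above the hybrids.

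The level of the called IDs in B73 and in the mutant hybrid was read as a description, since these libraries took no part in the fit. At the 194 higher IDs counted in both groups, the median level was 28.01 and 18.97 CPM in the WTF1 libraries, 18.5 and 22.2 CPM in mop1F1, 28.5 and 25.98 CPM in B73, and 0.513 and 0.463 CPM in Mo17. The medians of both hybrids lay nearer to B73 than to Mo17. Those of mop1F1 and of WTF1 replicate 2 were below both B73 medians. That WTF1 lies above Mo17 in this set, and below it in the next, is fixed by the choice of the sets. The levels of mop1F1 and B73 are read against the same Mo17 libraries. At the 164 lower IDs, the median was 2.96 and 3.36 CPM in WTF1, 3.89 and 3.01 CPM in mop1F1, 1.76 and 1.29 CPM in B73, and 26.96 and 27.09 CPM in Mo17. The B73 values of the lower IDs spread widely, with quartiles of 0 and 26.7 CPM in B73 replicate 1 and of 0 and 28.4 CPM in B73 replicate 2. Of the 164 lower IDs, 49 had 0 counts in both B73 libraries (29.9%), as had 3 of the 194 higher IDs (1.55%) and 597 of all 22558 (2.65%). The comparisons of WTF1 with Mo17, of mop1F1 with Mo17 and of B73 with Mo17 share the Mo17 libraries, so the values are set side by side without a test.

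**Figure D4:**
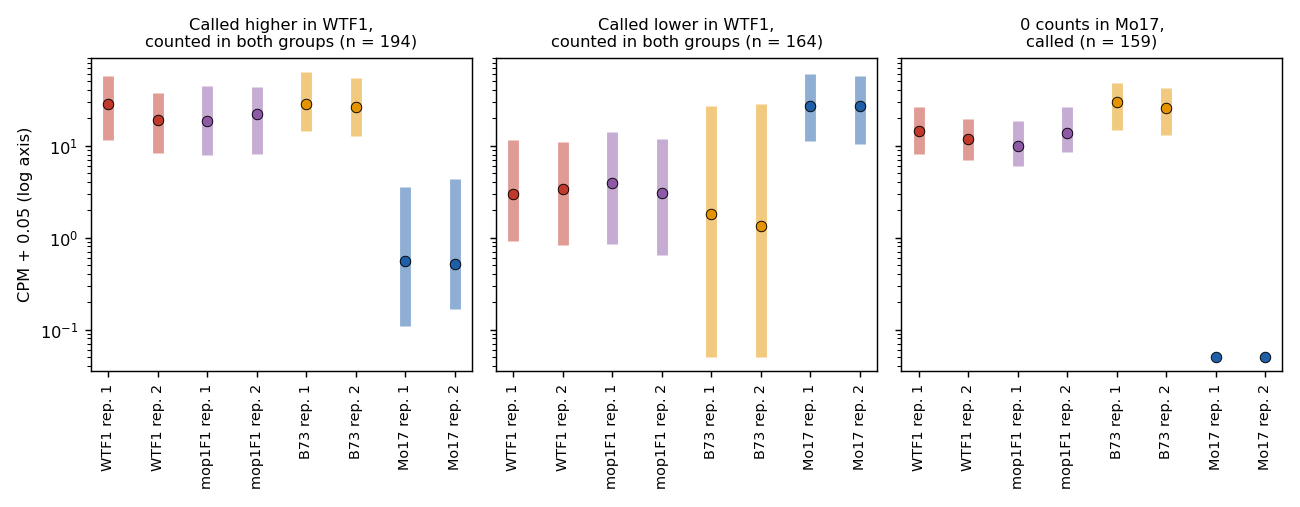
Median (point) and quartiles (bar) of CPM plus 0.05 on a log axis in each of the 8 libraries, for the IDs called higher in WTF1, those called lower, and the called IDs with 0 counts in Mo17. In the left panel the medians of B73 and both hybrids lie between 18.5 and 28.5 CPM, and in the middle panel the Mo17 medians of 26.96 and 27.09 CPM stand above those of all other libraries. The direction between WTF1 and Mo17 is fixed by the choice of the sets.

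IDs without any count in Mo17 were kept as a class of their own, because a 0 there may mean no expression or an ID missing from the gene set used with Mo17. Of 39005 IDs kept, 12020 were at 0 in both Mo17 libraries, 7074 of them in all 8 libraries, and 3421 had counts in WTF1. The filter on low counts passed 383 of these 3421 through their WTF1 level alone, so their direction is fixed by the choice of the class. Their median level was 5.06 and 3.72 CPM in the WTF1 libraries, 3.55 and 4.52 CPM in mop1F1, 7.35 and 6.51 CPM in B73, and 0 in Mo17, where a count of 0 allows up to 0.181 and 0.173 CPM. The highest ID of the class reached 227 CPM in WTF1 replicate 1 and 303 CPM in WTF1 replicate 2. The class edge was not sharp: 133 tested IDs had 1 to 3 counts over the 2 Mo17 libraries together. Their median WTF1 mean was 2.54 CPM against 4.34 CPM in the class. Of the 133, 55 were called higher, beside 41.5% of the class and 1.54% of all tested IDs. These 55 are among the 194 IDs counted in both groups and called higher.

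The 159 called members of the class had higher levels at the middle than the rest, with overlap. Their median WTF1 mean was 13.6 CPM, and the lowest was 3.52 CPM, against a median of 2.05 CPM in the 224 members not called, which reached 54.9 CPM in WTF1 replicate 1 and 22.4 CPM in WTF1 replicate 2. With the Mo17 level set at 3 counts per library, the 159 were at least 19.9-fold to at least 1015-fold higher in WTF1, with a median bound of 76.7. The WTF1 libraries differed more than 2-fold at 25 of the 159 and at 100 of the 224. With Mo17 at 0, a call depends on the WTF1 level and on how close the 2 WTF1 libraries are. These contrasts between called and not called members therefore go with the test itself. In B73, 345 of the 383 had counts. The other 38 had 0 counts in both inbred parents, and 3 of these 38 were called, beside 41.5% of the class and 1.54% of all tested IDs called higher. Both mop1F1 libraries were at 0 at 2 of the 383. Without WTF1 replicate 1 or 2, where the spread comes from the Mo17 pair, 483 and 394 IDs of the class were called (edgeR).

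The class was spread mostly as single IDs along the ID numbers. Of its runs over consecutive tested IDs, 345 were single and 12 held 2 or more. The longest runs held 10 and 5 IDs and lay close together, between the numbers 35356 and 35436, a stretch chosen after the values were seen. There 15 of 16 tested IDs were at 0 in Mo17, beside 1.67% of all tested IDs. Of the 15, 9 were called higher in WTF1, beside 41.5% of the whole class and 1.54% of all tested IDs. The levels of these 15 ranged between 0.686 and 42.8 CPM in WTF1 replicate 1, between 0.652 and 31.5 CPM in WTF1 replicate 2, and between 1.40 and 78.0 CPM in B73 replicate 1. The medians were 6.52 and 4.26 CPM in WTF1, 3.42 and 4.05 CPM in mop1F1 and 12.3 and 11.5 CPM in B73. All 15 were thus counted in B73. Counts in both WTF1 libraries were fixed in advance, since the filter passed these IDs only through their WTF1 level. Of the 53 kept IDs of the stretch, tested or not, 50 were at 0 in both Mo17 libraries, 23 in both WTF1 libraries and 29 in both B73 libraries.

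The reverse class was small among the tested IDs. Of 848 kept IDs at 0 in WTF1 and counted in Mo17, 15 passed the filter, through their Mo17 level alone, so their direction too is fixed by the choice of the class. The 15 had Mo17 means between 0.765 and 20.8 CPM with a median of 1.15 CPM. The 3 called ones were at least 33.9-fold to at least 112-fold lower in WTF1, with the WTF1 level set at 3 counts per library. All 3 had 0 counts in both B73 libraries, as had 9 of the 15 in all. In mop1F1 none of the 15 exceeded 0.347 CPM, and in B73 none exceeded 1.41 CPM.

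The hybrid level at IDs counted in a single parent was read from IDs picked on parental libraries alone, so that the filter on WTF1 played no part. A 0 in Mo17 may again be an ID missing from the gene set used with Mo17. For a 0 in B73, the hybrids were mapped to B73 as the B73 libraries were. At 427 IDs with 0 counts in Mo17 and a B73 mean of at least 1 CPM, the median level as a share of the B73 mean was 52.1% in WTF1 replicate 1 and 35.2% in WTF1 replicate 2, and 39.0% and 49.6% in mop1F1. At 491 IDs with 0 counts in B73 and a Mo17 mean of at least 1 CPM, the median share of the Mo17 mean was 25.6% and 22.8% in WTF1, and 16.6% and 31.1% in mop1F1. All 4 hybrid libraries were thus below the counted parent at the middle of both sets, and each was lower at the IDs with 0 counts in B73. At 19891 IDs with at least 1 CPM in both parents, the median share of the Mo17 mean was 92.7% and 96.1% in WTF1.

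Single IDs of these sets spread around those medians. By the mean of the WTF1 libraries, 229 of the 427 IDs (53.6%) were at or below 50% of B73, 25 were above B73 and 13 had 0 counts in WTF1. Of the 491 IDs, 400 (81.5%) were at or below 50% of Mo17, 20 were above Mo17 and 8 had 0 counts in WTF1. At IDs with at least 1 CPM in both parents, 1393 of 19891 IDs (7.003%) were at or below 50% of Mo17. Reads of Mo17 copies in the hybrids were mapped to B73, whereas those of the Mo17 parent were mapped to Mo17. The share of records set aside for low alignment quality was 9.35% and 8.31% in WTF1, 9.35% and 8.01% in mop1F1, 1.76% and 2.24% in B73 and 5.76% and 6.06% in Mo17, and their part in the lower shares was not tested.

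**Figure D5:**
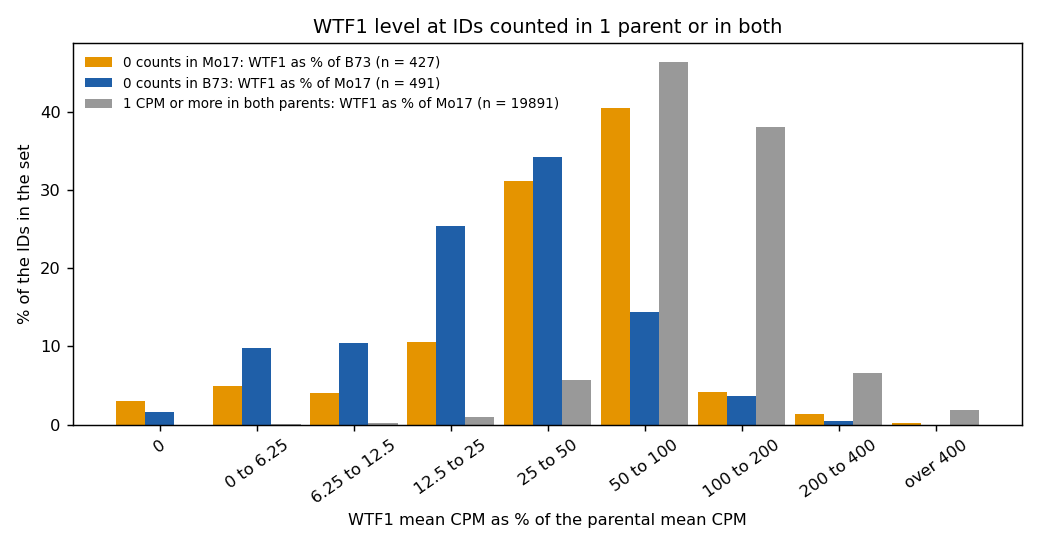
Share of IDs (vertical axis, % of the set) by the WTF1 mean as a percentage of a parental mean (horizontal axis, bins of rising width), for 427 IDs at 0 in Mo17, 491 IDs at 0 in B73 and 19891 IDs with at least 1 CPM in both parents. The first set peaks between 50 and 100% of B73, the second between 25 and 50% of Mo17, and the third between 50 and 100% of Mo17.

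IDs next to each other in number were looked up for calls at both. Of 12069 pairs of tested IDs with consecutive numbers, 7 had both members called and counted in both groups. In 1 pair both were higher, in 4 both were lower, and in 2 the directions were opposite. Of single IDs counted in both groups, 1.59% were called. Whether 7 pairs are more than a random placement of the calls would give was not tested. Zm00001d021001.RefGen_V4, named above, belongs to an opposite pair. The ID numbered 1 before it, singled out after its values were seen, had 224 and 99.8 CPM in WTF1, 128 and 172 CPM in mop1F1, 321 and 192 CPM in B73, and 0.302 and 0.694 CPM in Mo17 (log2 fold change 8.38, edgeR, adjusted p = 0.0203). The members of this pair were thus in opposite states: the first was expressed in WTF1, mop1F1 and B73, the second in Mo17. Strand-specific counting is not stated in the sources used here, so reads of overlapping neighbours cannot be told apart.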

How the data were processed

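The members and lists were chosen with earlier results of these data known. The deposited tables hold whole-number read counts per gene ID, 1 library each, followed by the 5 summary rows of HTSeq. Besides HTSeq, the submitters' processing notes list HISAT2, Trimmomatic, FastQC and DESeq2 and give no versions. The IDs end in RefGen_V4. The annotation file used with each genome, aligner options and strandedness: not given in the sources used here. The summary rows (21.1% to 29.8% of records in WTF1 and Mo17) were left out. So were 319 IDs numbered 1 to 460 and 174 GRMZM IDs, all at 0 in Mo17, which left 39005 of 39498.

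Counts of the 2 WTF1 and 2 Mo17 libraries were fitted alone with edgeR 4.0.16, limma 3.58.1 and R 4.3.3, using filterByExpr, TMM scaling (factors 0.974 to 1.02), group means, estimateDisp and the quasi-likelihood F test with legacy set to false, Benjamini-Hochberg adjustment over 22956 IDs and a threshold of 0.05. The SE of a log2 fold change was computed as its absolute value over √F. CPM are counts per 1000000 counts of the library's kept IDs, without TMM. A count of 0 allows 3 counts, 0.257 and 0.115 CPM in WTF1 and 0.181 and 0.173 CPM in Mo17; these limits and the intervals cover counting error only.

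The 2 IDs named per direction had an adjusted p below 0.05, a group mean of at least 1 CPM, no overlap between the groups and a count in each of the 4 libraries, and were the largest log2 fold changes of 297 such IDs. The lists (RNA-directed DNA methylation, DNA methylation upkeep, ear meristems, floral organs, cell cycle, and leaf, kernel, pollen and silk markers) gave no result, since no ID could be paired with a symbol (gene table of assembly Zm-B73-REFERENCE-NAM-5.0). The script was run on simulated data with the same spread in both groups. That run does not test the calls under the unequal spread found here. Alternatives were other scalings, filters and tests (DESeq2 1.42.0), a minimum fold change, a replicate block, all 8 libraries, other ID sets, and leaving out each library.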

Additional observations from a re-analysis of the deposited data

Results flagged for a closer look

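Some kinds of record and ID outside the comparison stood above both Mo17 libraries in 1 or both WTF1 libraries. The share of ambiguous reads was 9.70% and 1.29% in the WTF1 libraries, 10.25% and 1.35% in mop1F1, and 1.59% and 2.35% in Mo17, so it was high in replicate 1 of both hybrids and not in replicate 2. Low alignment quality set aside 9.35% and 8.31% of WTF1 records, against 5.76% and 6.06% in Mo17, and more than 1 alignment set aside 3.37% and 3.086% in WTF1, against 2.94% and 3.095% in Mo17. Reads without a feature (4.31% and 5.24% in WTF1, 5.60% and 5.41% in Mo17) and unaligned reads (3.04% and 3.21% in WTF1, 5.97% and 6.11% in Mo17) were below Mo17. The IDs numbered 1 to 460 held 67546 and 132451 counts in WTF1, at 223 of 319 IDs, against 0 in both Mo17 libraries. This was 0.576% and 0.506% of the WTF1 counts. By contrast, 254 of the next 319 IDs, which are numbered 1763 to 2140, had counts in Mo17. The GRMZM IDs held 433 and 1941 counts in WTF1, at 81 of 174 IDs, and 0 in Mo17. These IDs took no part in the tests, and the part of any of these records in the results was not tested.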

How the results depend on the processing

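The order of the 2 directions among IDs counted in both groups, 194 higher against 164 lower in WTF1, was the same under all 16 alternatives, but the numbers were not. Of the 194, 55 had 1 to 3 counts over the 2 Mo17 libraries together, and none of the 16 moved this edge of the class at 0. The order therefore depends on where that edge is set. IDs without overlap between the groups ran the other way, 5450 higher and 7206 lower. DESeq2's Wald test gave 1355 and 783, a minimum log2 fold change of 1 gave 98 and 47, all 8 libraries in one fit gave 431 and 261, and leaving out the IDs at 0 in Mo17 or in either group before the fit gave 89 and 58 each time. The class at 0 in Mo17, with 159 called, had 421 with DESeq2, 277 with all 8 libraries and 312 with the numbered and GRMZM IDs kept in, which join the class; the IDs counted in both groups were then 256 higher and 241 lower. Under a replicate block, 391 IDs counted in both groups were higher and 256 lower, and 264 of the class were called. The numbers do not pair the samples by any label, and deviations of same-numbered WTF1 and Mo17 libraries correlated at -0.08 over 22317 IDs. Leaving out 1 library in turn gave 62 to 4983 higher, 18 to 4550 lower and 129 to 483 in the class; the high ends leave 1 WTF1 library, which is then assumed to vary like Mo17. Apart from the lost calls given above for Zm00001d024852.RefGen_V4, the 4 named IDs passed under each alternative with the same sign. Other scalings, filters and the legacy method kept each count within 1.5 times, and the cause of the other moves was not tested.

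Only 2 libraries per group, an unequal spread and a WTF1 replicate 1 of 11655117 counts over kept IDs limit the calls. IDs at a few counts in 1 group have folds that rest on those counts.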
